A study of Mus musculus with 32 samples.

Results

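The intrinsic (mitochondrial) apoptosis genes described here were Bax, Bak1, Bcl2, Bcl2l1, Bcl2l11, Bbc3, Casp9, Apaf1 and Diablo, 9 of the 33397 genes of the expression table. They were chosen by name as the core of the pathway, and each had 1 row in the table under the Ensembl identifier that GENCODE mouse release 21 pairs with its symbol. Gastrocnemius (GAS) muscle, the large calf muscle, of C57BL/6 mice was sequenced as RNA in 32 samples, 4 on each of days 0, 1, 3, 5, 7, 14, 21 and 28. The study's methods describe male C57BL/6J mice aged 6 to 8 weeks in which a piece of the left sciatic nerve was removed, and sham mice that had the same operation without transection. The labels list sciatic nerve transection for all 32 samples, the 0 d group included, while the table names the 0 d columns with the letter C. The 0 d group was therefore the reference, and no unoperated group was analysed here. Nerve transection removes all nerve branches to the muscle, so the samples hold denervated fibres together with the nerve, vessel and immune cells of the same tissue.

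Intrinsic apoptosis is decided at the outer membrane of the mitochondrion. BH3-only proteins such as BIM (Bcl2l11) and PUMA (Bbc3) bind the survival proteins BCL-2 (Bcl2) and BCL-XL (Bcl2l1), which frees the pore formers BAX (Bax) and BAK (Bak1) to open the membrane. Cytochrome c and SMAC (Diablo) then leave the mitochondrion, cytochrome c assembles APAF-1 (Apaf1) and caspase-9 (Casp9) into the apoptosome, and caspase-9 cleaves the caspases that act after it. In denervated muscle the pathway is known for the loss of myonuclei and satellite cells. Most of its control is by protein binding and cleavage, so a transcript level is a level of message and not of pathway activity.

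Levels are FPKM, fragments scaled by library total and by exon length, so genes can be compared with each other. Differences are those of log2(FPKM + 1), where the added 1 shrinks the change of a gene with low FPKM, and a gene was called where its limma adjusted p (Benjamini-Hochberg over all 22071 genes tested) was under 0.05. Samples are numbered 1 to 4 by the order of their columns within a day, and values of single samples follow that order, which is only a name. Recovered depth was 14199901 to 17561584 fragments per sample. Of the tissue markers, the 7 muscle fibre genes summed to 38840 to 41417 FPKM at 0 d and to 21526 to 24781 FPKM at 28 d, and 5 of 6 retina genes, checked because the extraction text names retinas, were in the table and each averaged under 0.1 FPKM. Sample 1 of 3 d stood apart, with a median correlation of 0.965 with the other samples of its day where all other samples had at least 0.978, and a member whose call at 3 d changes without it is given with that value. In whole-muscle RNA, fewer cells of a type and less RNA per cell cannot be told apart.

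All 9 genes differed among the 8 days by limma's F test, where 63.2% of all genes tested did. That of Apaf1 was lost without 0 d sample 1 or 4, that of Diablo without 0 d sample 1, without 1 d sample 1 or 4 and with a pseudocount of 0.1, and that of Casp9 with quantile normalization. The members differed in the day of the highest mean. Bax was higher at every day from 1 d to 28 d. Bcl2l11 and Diablo had their highest mean on day 1, Bak1 and Bcl2l1 on day 3, Bcl2 and Bax on day 5, Bbc3 and Apaf1 on day 7 and Casp9 on day 14. Only for Bcl2l11, Bak1 and Bcl2l1 did the samples of that day lie apart from those of the next highest day. For the other members the 2 ranges overlapped. At 1 d, 6 members were called higher (20.4% of all genes were), or 3 without 1 d sample 4, and at 3 d 5 were (29%). At 5 d and 7 d 6 members were called higher on each day, against 36.1% and 37.1% of all genes. At 14 d 7 members were called higher (38%), and at 21 d and 28 d 5 were (31.7% and 37.8%). On the lower side 1 member was called, Bcl2 at 21 d, where 10.1% of all genes were called lower. The other 6 days had 0 members called lower by limma, 0 at an unadjusted p under 0.05 and 0 by limma-voom on recovered fragments, with a background of 9.01%, 14.3%, 9.52%, 10.1%, 9.25% and 9.85% of all genes. The median difference of the 9 members was 0.38, 0.44, 0.55, 0.54, 0.42, 0.33 and 0.33 from 1 d to 28 d, where that of all genes tested was 0.03, 0.06, 0.13, 0.13, 0.15, 0.10 and 0.14. The added 1 holds genes of low FPKM near 0. For genes with a mean of at least 1 FPKM, which all members but Diablo had, the median was 0.12, 0.20, 0.31, 0.32, 0.32, 0.24 and 0.30.

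**Figure D1:**
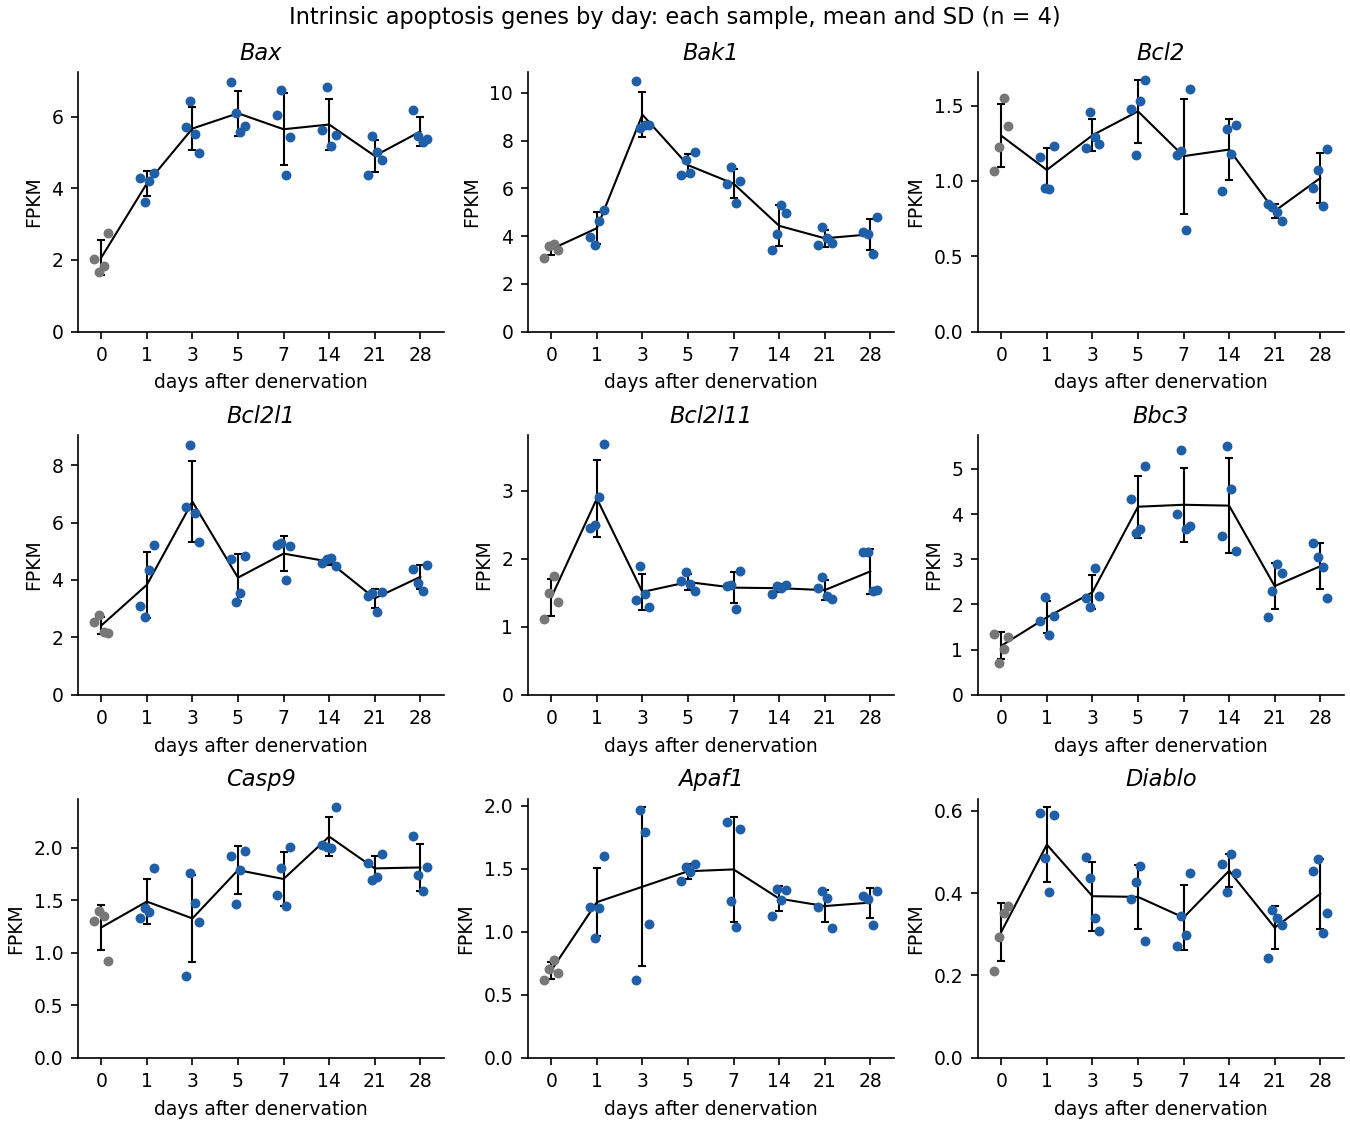
FPKM of each of the 9 genes by day after denervation, with 1 point per sample (grey for 0 d, blue for later days) and black lines and bars for the mean and SD of 4 samples. Bax leaves its 0 d range at 1 d and stays above it, Bcl2l11 is highest at 1 d, Bak1 and Bcl2l1 are highest at 3 d, and Diablo stays under 0.6 FPKM.

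The smaller differences depended on how the libraries were scaled. Among the 11943 genes with a mean of at least 1 FPKM, the median difference from 0 d was 0.12 at 1 d, 0.20 at 3 d and 0.24 to 0.32 from 5 d on. The 7 muscle fibre genes together lost share of the library over the same days. Of the 7, 1 was called lower at 1 d and 3 to 5 were from 3 d on, while 1 or 2 were called higher from 3 d on. Mitochondrial genes held 14.5% to 18.2% of fragments at 0 d, 7.3% to 9.3% at 14 d and 9.3% to 11.7% at 28 d. Scaling each sample by its median ratio to the other samples brought that median to between -0.02 and 0.03 on the same log2 scale, as such centring does by construction, and whether the higher median is one of scale or of the transcripts cannot be told apart here. Genes called higher made up 67.0% to 80.4% of all calls against 0 d with the deposited scaling and 45.4% to 50.1% with median-ratio scaling. With median-ratio scaling the members called higher numbered 5, 5, 4, 5, 4, 2 and 3 from 1 d to 28 d, against 14.3%, 21.8%, 19.1%, 20.3%, 18.9%, 18.5% and 20% of all genes, and Bcl2 was called lower at 1, 7, 14, 21 and 28 d, where 17.3% to 20.2% of all genes were. Every call of Bax, and those of Bak1 and Bcl2l1 at 3 d and of Bbc3 from 3 d on, were made under both scalings. Quantile normalization changed the same member calls against 0 d on single days as median-ratio scaling. With the library total taken without mitochondrial genes the calls of Bbc3 at 1 d, Casp9 at 5 d and 7 d, Bak1 and Diablo at 14 d and Bcl2l1 at 21 d were lost and Bcl2 was called lower at 28 d (-0.27). The calls were then also held to a fold of at least 1.5 in FPKM + 1, in either direction. From 1 d to 28 d 2, 4, 3, 4, 3, 2 and 2 members passed, against 8.84%, 19.3%, 18.8%, 19.5%, 18.5%, 15.7% and 18.3% of all genes. Apaf1 was not among these members on any day, although its mean FPKM was 1.74 to 2.16 times that of 0 d.

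**Figure D2:**
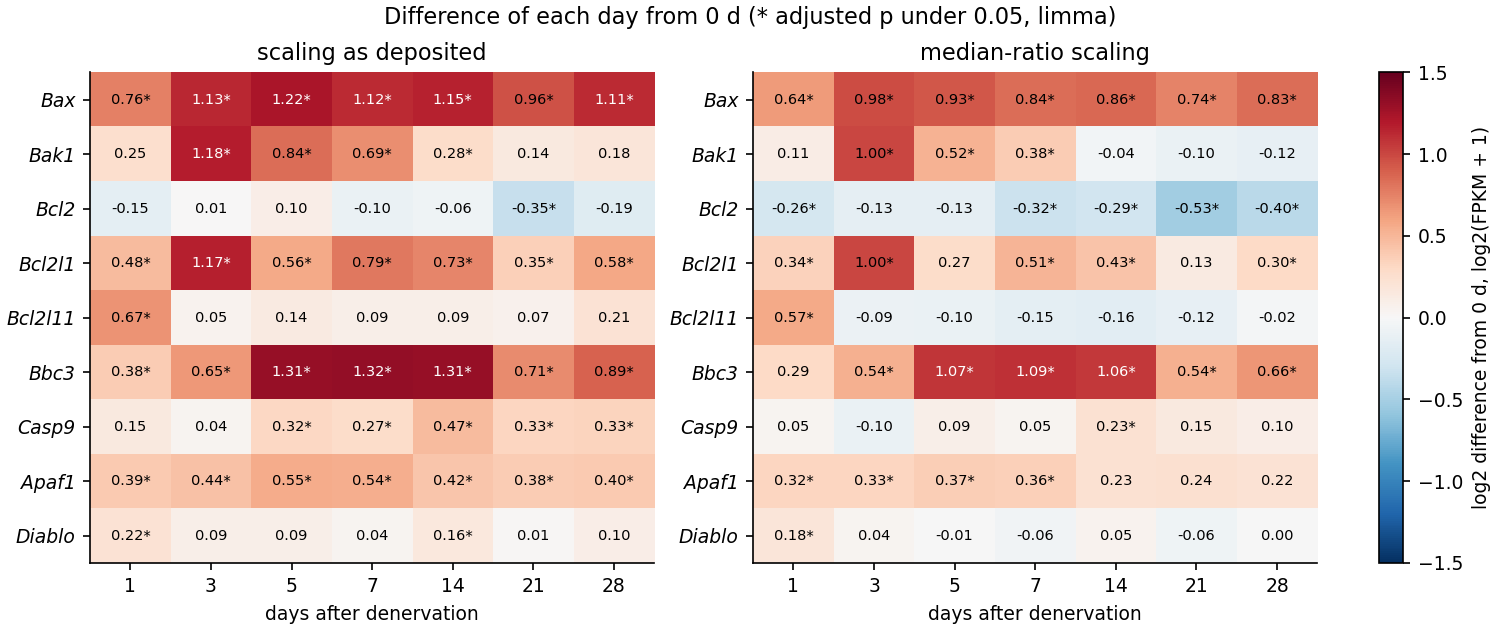
Log2 difference from 0 d (columns, days after denervation) of the 9 genes with the deposited scaling (left) and with median-ratio scaling (right), on the log2(FPKM + 1) scale, with asterisks for an adjusted p under 0.05 in limma. Red is higher and blue lower than 0 d. Bax is red and called in all 14 cells, whereas Bcl2 carries 1 call on the left and 5 on the right.

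Bax, one of the pore formers, lies on chromosome 7 (chr7:45461697-45466898, minus strand, GRCm38, ENSMUSG00000003873). Its 4 samples at 0 d read 2.02, 1.66, 1.83 and 2.76 FPKM, and those at 1 d 4.29, 3.63, 4.21 and 4.42 FPKM. At 3 d the samples read 5.72, 6.45, 5.53 and 5.00 FPKM, and at 5 d 6.98, 6.10, 5.57 and 5.75 FPKM. All of these denervated samples lay above all 0 d samples. The samples read 6.05, 6.75, 4.38 and 5.43 FPKM at 7 d and 5.64, 6.83, 5.18 and 5.50 FPKM at 14 d. They read 4.37, 5.47, 5.01 and 4.78 FPKM at 21 d and 6.20, 5.48, 5.30 and 5.39 FPKM at 28 d. The 28 denervated samples thus held 4-sample means of 4.14 to 6.10 FPKM against 2.07 ± 0.484 FPKM (SD, n = 4) at 0 d. The log2 difference was 0.76 ± 0.11 (SE) at 1 d (adjusted p = 1.6e-06) and 1.22 ± 0.11 at 5 d (adjusted p = 1.1e-10), and the other days lay between 0.96 and 1.15. Bax rose again between 1 d and 3 d by 0.38 (adjusted p = 0.0063). From 3 d on no step between neighbouring days was called, and the interval of the difference between the mean of 14, 21 and 28 d and the mean of 1, 3, 5 and 7 d was -0.10 to 0.14 on the log2 scale.

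Bak1, the other pore former (chr17:27019810-27029009, minus strand, GRCm38, ENSMUSG00000057789), had a peak at 3 d. At 0 d its samples read 3.10, 3.59, 3.67 and 3.43 FPKM and at 1 d 3.95, 3.62, 4.64 and 5.11 FPKM, and those ranges overlapped. At 3 d they read 10.5, 8.54, 8.65 and 8.67 FPKM, above every sample of every other day. On days 5, 7 and 14 the mean then stood at 6.97 ± 0.463, 6.20 ± 0.618 and 4.43 ± 0.856 FPKM (SD, n = 4). At 21 d and 28 d it was 3.91 ± 0.348 and 4.07 ± 0.636 FPKM, and both ranges overlapped that of 0 d. For Bak1 the log2 difference from 0 d was 1.18 ± 0.10 (SE) at 3 d (adjusted p = 1.5e-10), 0.84 at 5 d and 0.69 at 7 d. Bak1 rose by 0.92 from 1 d to 3 d (adjusted p = 3.6e-08), fell by 0.34 from 3 d to 5 d (adjusted p = 0.017) and fell by 0.42 from 7 d to 14 d (adjusted p = 0.025). The fall after 3 d was not called without 3 d sample 1 (-0.27 on the log2 scale) or without 5 d sample 1 (-0.31) or with TPM (-0.34), and the fall after 7 d was not called without any of 5 of the 8 samples of those days (-0.42 to -0.32). The 14 d difference from 0 d was 0.28 (adjusted p = 0.03) with the deposited scaling and -0.04 with median-ratio scaling, and it was also not called without 0 d sample 1 or 4 (0.24 and 0.27) or without 14 d sample 3 or 4 (0.20 and 0.23), nor with limma-voom or in a fit of only the samples of 0 d and 14 d. At 21 d and 28 d the differences of 0.14 and 0.18 became -0.10 and -0.12 with median-ratio scaling, none of them called, whereas with TPM the 28 d difference was 0.37 and was called (adjusted p = 0.024). In the 1 d comparison the value was 0.25 (adjusted p = 0.069). It passed without 1 d sample 2 (0.32) or 14 d sample 1 (0.25), with TPM (0.39) and with a filter of at least 1 FPKM, and at 28 d it passed without 28 d sample 3 (0.27). Exons of Ggnbp1 on the opposite strand overlap 18.2% of the Bak1 exon length, and that gene averaged 0.673 FPKM.

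Bcl2, the founding survival gene of the family (chr1:106538178-106714274, minus strand, GRCm38, ENSMUSG00000057329), was the only member called lower than at 0 d. Its samples read 1.06, 1.22, 1.55 and 1.36 FPKM at 0 d and 0.847, 0.827, 0.791 and 0.735 FPKM at 21 d, with no overlap. On days 1, 3, 5, 7, 14 and 28 the means were 1.07, 1.30, 1.46, 1.16, 1.21 and 1.02 FPKM, and every one of these ranges overlapped that of 0 d. The log2 difference was -0.35 ± 0.10 (SE) at 21 d (adjusted p = 0.005). The 95% interval of the difference was -0.35 to 0.05 at 1 d, -0.20 to 0.21 at 3 d and -0.39 to 0.02 at 28 d. Median-ratio scaling moved the whole series down, to -0.26, -0.13, -0.13, -0.32, -0.29, -0.53 and -0.40 from 1 d to 28 d, with calls on all days but 3 d and 5 d. For Bcl2 the direction at 3 d (0.01) and 5 d (0.10) therefore depended on the scaling. Sample 3 of 7 d, at 0.676 FPKM, was the lowest of the 32.

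Bcl2l1, which encodes BCL-XL (chr2:152780668-152831728, minus strand, GRCm38, ENSMUSG00000007659), rose with Bak1 to 3 d and stayed higher than Bcl2. Its samples read 2.52, 2.76, 2.20 and 2.16 FPKM at 0 d and 3.09, 2.69, 4.33 and 5.20 FPKM at 1 d. The 1 d samples spread widely, and 1 of them lay within the 0 d range. At 3 d they read 6.53, 8.71, 6.35 and 5.32 FPKM, and sample 2 was the highest of the 32. On days 5, 7, 14, 21 and 28 the means were 4.08 ± 0.818, 4.92 ± 0.623, 4.64 ± 0.127, 3.36 ± 0.323 and 4.11 ± 0.424 FPKM (SD, n = 4), with no overlap with 0 d on any of these days. Against 0 d its log2 difference was 0.48 ± 0.13 (SE) on day 1 (adjusted p = 0.0071) and 1.17 on day 3 (adjusted p = 2.5e-08), and then 0.56, 0.79, 0.73, 0.35 and 0.58 to 28 d, all called. The level rose by 0.69 from 1 d to 3 d and fell by 0.60 from 3 d to 5 d (adjusted p = 0.00016 and 0.0012). The 1 d call was lost without 1 d sample 4 (0.34). The 21 d call was lost without any of 5 samples (0.32 to 0.35), namely 0 d sample 3 or 4 and 21 d sample 1, 2 or 4. With median-ratio scaling the 5 d and 21 d differences were 0.27 and 0.13 and were not called.

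The ratio of Bax to Bcl2 within a sample, often used as a summary of the balance between pore former and survival gene, does not depend on the scaling of the library. In the 4 samples of 0 d it was 1.90, 1.36, 1.18 and 2.02, against 3.69, 3.82, 4.44 and 3.59 at 1 d, and 5.16, 6.61, 6.34 and 6.51 at 21 d. Every denervated sample, the lowest at 3.37 in a 7 d sample, lay above every 0 d sample. The geometric means were 1.57 at 0 d, 3.87 at 1 d and 6.13 at 21 d. The ratio of Bax to Bcl2l1 gave another picture. Its range was 0.6005 to 1.28 at 0 d and 0.741 to 0.939 at 3 d, when both genes were high, and its range overlapped that of 0 d on all 7 days. On 6 of them the overlap rested on 0 d sample 4, at 1.28, since the other 3 samples of 0 d read at most 0.831 and lay below every sample of every day but 3 d. Its geometric mean was 0.846 at 0 d and 1.12, 0.853, 1.51, 1.14, 1.24, 1.46 and 1.36 from 1 d to 28 d. No test was run on either ratio.

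**Figure D3:**
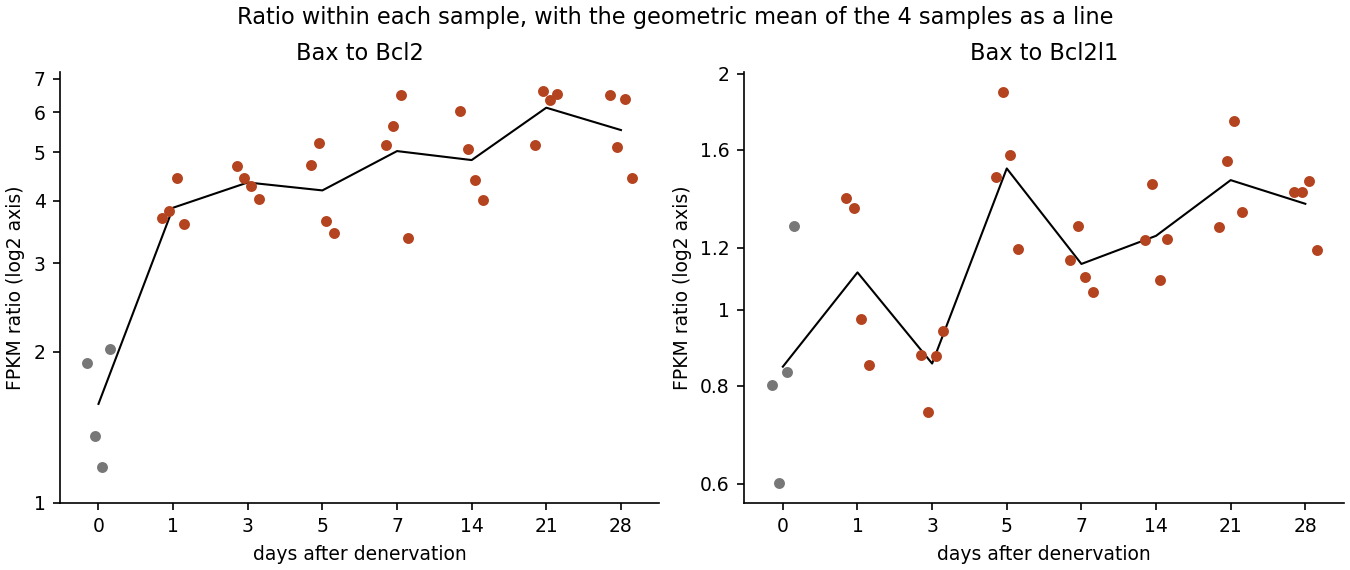
FPKM ratio of Bax to Bcl2 (left) and of Bax to Bcl2l1 (right) in each sample by day after denervation, on log2 axes, with a line through the geometric mean of 4 samples. On the left the 0 d samples lie at 1.18 to 2.02 and all later samples at 3.37 or more, and on the right the ranges overlap on every day, on all but 3 d only through the 0 d sample at 1.28.

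The BH3-only genes, whose proteins start the pathway, separated in time. Bcl2l11, which encodes BIM (chr2:128126038-128162547, plus strand, GRCm38, ENSMUSG00000027381), read 1.11, 1.502, 1.75 and 1.37 FPKM at 0 d and 2.46, 2.50, 2.91 and 3.69 FPKM at 1 d. Every 1 d sample lay above all other samples of the series. At 3 d the samples read 1.39, 1.89, 1.48 and 1.29 FPKM, and the means from 3 d to 28 d lay between 1.51 and 1.82 FPKM. Against 0 d the log2 difference of Bcl2l11 was 0.67 ± 0.10 (SE) at 1 d (adjusted p = 2.9e-06), and from 1 d to 3 d it fell by 0.62 (adjusted p = 8.2e-06). From 3 d to 21 d the difference from 0 d was 0.05 to 0.14 and was not called, and with median-ratio scaling it was -0.16 to -0.09. In fits that left out 1 sample the 1 d difference was 0.58 to 0.73 and stayed called. Neutrophil markers moved on the same day. The 5 on the list, of which 4 were called higher at 1 d and Ly6g averaged under 0.1 FPKM, summed to 1.14 to 1.77 FPKM at 0 d and to 45.9, 6.56, 27.4 and 90.8 FPKM in the 4 samples of 1 d. From 3 d to 28 d they summed to 16.9 to 49.6 FPKM. On day 1, sample 4, with the highest sum, also had the highest 1 d value of 7 members (all but Bbc3 and Diablo) and the highest macrophage, fibroblast, endothelial and Schwann cell sums of its day. Sample 2, with the lowest sum, still read 2.50 FPKM for Bcl2l11, and the part of neutrophils or of these other cells in the levels was not tested. At 28 d the value was 0.21 (adjusted p = 0.077). That value passed without 0 d sample 3 (0.27) or without 28 d sample 3 or 4 (0.26 for each), was 0.42 and called with TPM (adjusted p = 0.018), and was -0.02 with median-ratio scaling.

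Bbc3, which encodes PUMA (chr7:16308393-16318205, plus strand, GRCm38, ENSMUSG00000002083), rose later and remained up. Its samples read 1.34, 0.694, 1.02 and 1.28 FPKM at 0 d, 1.62, 2.17, 1.31 and 1.74 FPKM at 1 d and 2.15, 1.94, 2.80 and 2.18 FPKM at 3 d. At 5 d they read 4.34, 3.58, 3.67 and 5.07 FPKM and at 7 d 4.01, 5.42, 3.67 and 3.73 FPKM. From 3 d on no sample overlapped the 0 d range. The samples read 3.51, 5.50, 4.56 and 3.17 FPKM at 14 d, 1.73, 2.29, 2.90 and 2.70 FPKM at 21 d and 3.36, 3.05, 2.82 and 2.15 FPKM at 28 d. The level thus stood on a plateau from 5 d to 14 d, at means of 4.16 to 4.21 FPKM, 3.85 to 3.89 times the 0 d mean. From 3 d to 28 d the log2 differences from 0 d were 0.65, 1.31, 1.32, 1.31, 0.71 and 0.89, each ± 0.15 (SE), with adjusted p = 1.6e-08, 1.3e-08 and 1.7e-08 on days 5, 7 and 14. Bbc3 rose by 0.66 from 3 d to 5 d (adjusted p = 0.0012). Between 14 d and 21 d it fell by 0.60 (adjusted p = 0.03). That fall was not called without 14 d sample 2 or 3 (-0.48 and -0.56) or without 21 d sample 1 or 2 (-0.50 and -0.59), nor with median-ratio scaling (-0.52), quantile normalization (-0.53) or only the samples of those days. The 1 d difference of 0.38 (adjusted p = 0.049) sat at the threshold and was not called with median-ratio scaling (0.29), without the filter on low values, with limma-voom or in 17 of the 32 fits that left out a sample (0.29 to 0.40), among them those without 0 d sample 2 or 3 (0.29 and 0.37) or 1 d sample 1, 2 or 4 (0.40, 0.31 and 0.38). Bbc3 rested on 22 to 203 recovered fragments per sample.

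Promoter sequence is shown for Bax, Bcl2l11 and Bbc3, the members with a match to the p53 or the FoxO motif. Bax and Bbc3 are textbook p53 targets and Bcl2l11 and Bbc3 textbook FoxO targets. RefSeq (GRCm38.p6) gave 14 promoter windows for the 9 genes, each from 250 bases before to 50 bases after a transcription start, and both strands were searched. The p53 decamer was found in 1 window of the 14, that of Bax, and in 8.36% of all 32851 windows. The FoxO motif GTAAACA was found in a window of Bcl2l11 and in 1 of the 3 windows of Bbc3, and in 3.65% of all windows. The lines below give an 80-base stretch upstream of the start on the gene's strand, with the match in capitals, at chr7:45467050-45467129 for Bax, chr2:128125788-128125867 for Bcl2l11 and chr7:16310064-16310143 for Bbc3. The Bbc3 stretch precedes a downstream start and lies within introns of longer Bbc3 transcripts.
Bax: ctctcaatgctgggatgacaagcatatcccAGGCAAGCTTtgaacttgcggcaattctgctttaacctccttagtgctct
Bcl2l11: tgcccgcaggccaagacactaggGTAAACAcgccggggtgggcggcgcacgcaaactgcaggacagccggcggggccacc
Bbc3: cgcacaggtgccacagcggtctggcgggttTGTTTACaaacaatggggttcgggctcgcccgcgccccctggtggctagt
The matches begin 201, 227 and 167 bases before the start for Bax, Bcl2l11 and Bbc3. The Bbc3 match reads on the opposite strand. The NF-kB motif was found in windows of Bcl2l1 and Bbc3 and in 4.51% of all windows. The GC box GGGGCGGGG, a general promoter motif, was in 6 of the 14 windows, each of another gene, and in 11.4% of all windows. A match describes letters only, and no binding was measured.

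Apaf1, the scaffold (chr10:90989311-91082770, minus strand, GRCm38, ENSMUSG00000019979), read 0.618, 0.705, 0.776 and 0.677 FPKM at 0 d and 1.201, 0.950, 1.19 and 1.603 FPKM at 1 d, with no overlap. At 3 d its samples read 0.615, 1.97, 1.79 and 1.06 FPKM, and sample 1 lay below all 0 d samples while sample 2 was the highest of the 32. At 5 d they read 1.40, 1.51, 1.47 and 1.54 FPKM and at 7 d 1.88, 1.25, 1.04 and 1.82 FPKM. From 14 d to 28 d the means were 1.205 to 1.26 FPKM. Its log2 differences from 0 d were 0.39, 0.44, 0.55, 0.54, 0.42, 0.38 and 0.40 from 1 d to 28 d, each ± 0.13 (SE) and all called, with adjusted p = 0.021 on the first of these days. The 1 d call was lost without 0 d sample 1 (0.37) or 1 d sample 4 (0.32), the 3 d call without 3 d sample 2 (0.31) or in a fit of only the samples of 0 d and 3 d (adjusted p = 0.075), and the 21 d call without 21 d sample 2 (0.35). With median-ratio scaling the differences of 0.22 to 0.24 from 14 d on were not called.

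Apaf1 moved with macrophage markers across samples. The 7 macrophage and monocyte genes on the list, of which all 7 were called higher at 3 d, summed to 114 to 164 FPKM at 0 d, and on days 1, 3, 5 and 7 to 169 to 269, 249.9 to 825, 435 to 546 and 306 to 996 FPKM. From 14 d to 28 d the sums were 314 to 811 FPKM, and none of the 7 was at 0. Within 3 d the sums were 249.9, 825, 764 and 407 FPKM in the order in which Apaf1 is given above, and within 7 d they were 700.02, 371, 306 and 996 FPKM. On days 3, 5, 7 and 14 the sample with the lowest sum had the lowest Apaf1. On days 0, 1, 21 and 28 it did not, and at 0 d the lowest Apaf1 was in the sample with the highest sum. The samples lowest in Apaf1 at 3 d and at 7 d also had the lowest fibroblast marker sum, Casp9 and Bcl2 of their day. Over 32 samples Pearson's r between the log2 sum and log2(FPKM + 1) was 0.812 for Apaf1 and 0.778 for Bax, 0.682 for Bbc3, 0.675 for Bcl2l1, 0.611 for Casp9, 0.525 for Bak1, 0.235 for Bcl2, 0.020 for Diablo and -0.141 for Bcl2l11. Among the 28 denervated samples it was 0.689 for Apaf1, 0.613 for Bax, 0.504 for Bcl2, 0.485 for Casp9, 0.479 for Bcl2l1, 0.455 for Bbc3, 0.379 for Bak1, -0.289 for Diablo and -0.426 for Bcl2l11. With the summed denervation response genes on the list, r over 32 samples was 0.901 for Bax, 0.760 for Bbc3, 0.597 for Apaf1, 0.591 for Bcl2l1, 0.541 for Casp9, 0.410 for Bak1, 0.092 for Diablo, -0.132 for Bcl2l11 and -0.187 for Bcl2. These points share their libraries and their order in time, and the part of macrophages in any of these levels was not tested.

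**Figure D4:**
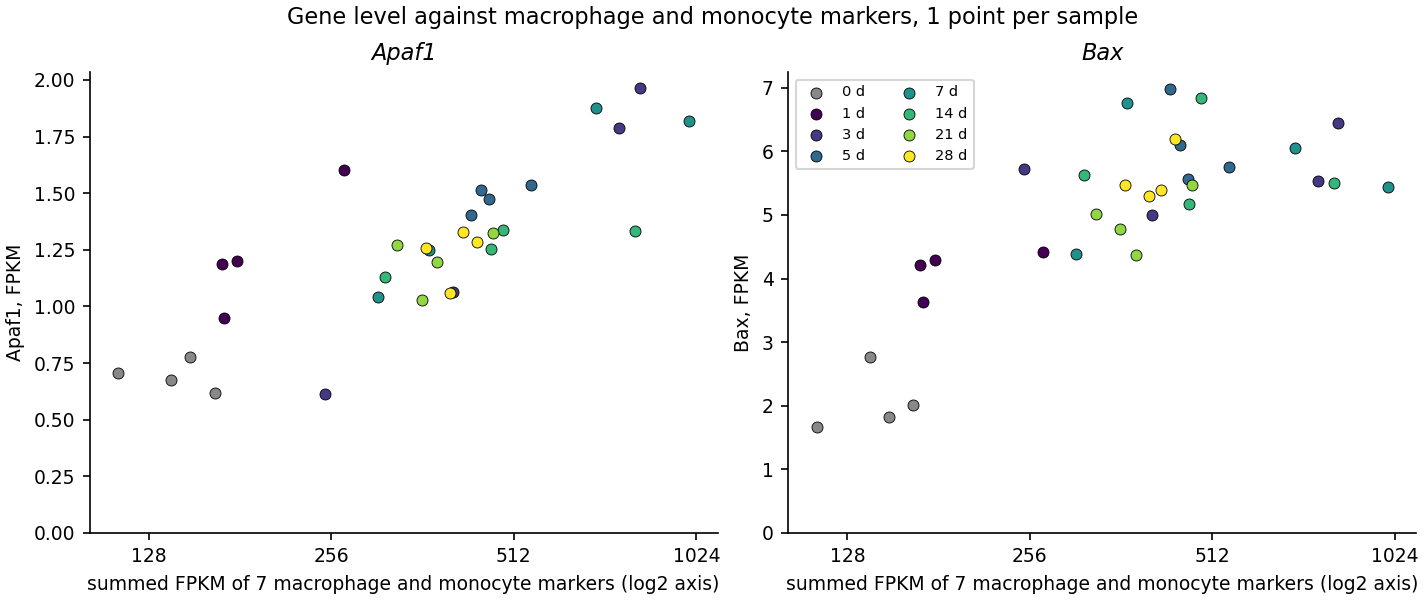
FPKM of Apaf1 (left) and Bax (right) against the summed FPKM of 7 macrophage and monocyte markers on a log2 axis, with 1 point per sample coloured by day after denervation (grey for 0 d). Apaf1 spans 0.615 to 1.97 FPKM within 3 d together with sums of 249.9 to 825, whereas Bax spans 5.00 to 6.45 FPKM over the same samples.

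Casp9, the initiator caspase of the apoptosome (chr4:141793612-141815976, plus strand, GRCm38, ENSMUSG00000028914), rose late. Its samples read 1.30, 1.39, 1.35 and 0.921 FPKM at 0 d and 2.03, 2.01, 2.00 and 2.39 FPKM at 14 d, with no overlap. On days 1, 3, 5, 7, 21 and 28 the means were 1.49 ± 0.217, 1.33 ± 0.413, 1.79 ± 0.229, 1.701 ± 0.254, 1.80 ± 0.118 and 1.81 ± 0.220 FPKM (SD, n = 4). Sample 1 of 3 d, at 0.779 FPKM, was the lowest of the 32. From 5 d to 28 d its log2 differences were 0.32, 0.27, 0.47, 0.33 and 0.33, each ± 0.10 (SE) and all called, with adjusted p = 0.00035 at 14 d. At 1 d and 3 d the values were 0.15 and 0.04 and were not called. With median-ratio scaling only the 14 d difference (0.23) was called. Without 0 d sample 4, the lowest of its day, the calls at 5, 7, 21 and 28 d were lost (0.24, 0.20, 0.26 and 0.26), and the 7 d call was also lost without 7 d sample 2 or 4 (0.25 and 0.22) and with only the samples of 0 d and 7 d.

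Diablo, which encodes the SMAC protein that binds inhibitors of apoptosis (chr5:123509765-123524176, minus strand, GRCm38, ENSMUSG00000029433), was the lowest member. It rested on 20 to 60 recovered fragments per sample. Its samples read 0.211, 0.293, 0.351 and 0.368 FPKM at 0 d and 0.594, 0.485, 0.403 and 0.589 FPKM at 1 d, with no overlap. At 14 d they read 0.471, 0.402, 0.495 and 0.449 FPKM, again above all 0 d samples, and on the other days the means were 0.316 to 0.398 FPKM with ranges that overlapped 0 d. The log2 difference was 0.22 ± 0.06 (SE) at 1 d (adjusted p = 0.0056) and 0.16 at 14 d (adjusted p = 0.031), and the ratio of the mean FPKM was 1.69 and 1.49. The 14 d call was lost without 0 d sample 1 or 2 (0.12 and 0.15), without 14 d sample 1, 3 or 4 (0.15, 0.14 and 0.16), in a fit of only the samples of 0 d and 14 d, and with median-ratio scaling (0.05). Exons of B3gnt4 on the opposite strand overlap 21.5% of the Diablo exon length and those of Gm49027 on the same strand 19.4%, so reads there could not be assigned to Diablo with certainty. Bax shares 12.2% of its exon length with Gm45808 on the same strand. Strand use in counting was not given in the sources used here.

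The steps between neighbouring denervated days were also compared. From 1 d to 3 d 3 members were called higher (Bax, Bak1 and Bcl2l1) and 1 lower (Bcl2l11), where 17.2% and 13.7% of all genes were. From 3 d to 5 d 1 was called higher (Bbc3) and 2 lower (Bak1 and Bcl2l1), against 16.6% and 7.17%. From 5 d to 7 d limma called 0 members, as did limma-voom, and 0 had an unadjusted p under 0.05, with a background of 1.14% higher and 0.825% lower. From 7 d to 14 d 1 was called lower (Bak1, background 1.36%, and 1.18% for higher) and from 14 d to 21 d 1 was called lower (Bbc3, background 1.28%, and 0.326% for higher). From 21 d to 28 d limma and limma-voom again called 0 members and 0 had an unadjusted p under 0.05, with a background of 0.367% higher and 0.109% lower.

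The mean of 14, 21 and 28 d, when atrophy is established, was then set against the mean of 1, 3, 5 and 7 d. Casp9 was called higher by 0.18 (adjusted p = 0.0096), where 24.7% of all genes were called higher. Bak1 was lower by a log2 difference of -0.54 (adjusted p = 5.8e-09), Bcl2 by -0.16 (adjusted p = 0.016) and Bcl2l1 by -0.19 (adjusted p = 0.033), where 15.4% of all genes were called lower. The Bcl2l1 call was lost in 9 of the 32 fits that left out 1 sample (-0.19 to -0.16), with the smallest value without 1 d sample 4, and also with TPM (-0.21) and without the filter on low values. Bcl2l11, at -0.11 (adjusted p = 0.088), was called lower with median-ratio scaling (-0.16), quantile normalization (-0.19) and the total without mitochondrial genes (-0.13), and Apaf1 was called lower with quantile normalization (-0.15). Bax and Bbc3 differed by 0.02 and 0.05. In a fit of 16 samples that pooled 14, 21 and 28 d against 0 d, 5 members were called higher (Bax 1.07, Bbc3 0.97, Bcl2l1 0.56, Apaf1 0.40 and Casp9 0.38), where 45.4% of 20243 genes were. On the lower side limma called 0 members and limma-voom 1, and 1 had an unadjusted p under 0.05, where 12.1% of genes were called lower. That member was Bcl2, at -0.20 (adjusted p = 0.059), which passed without 0 d sample 1 (-0.25), 14 d sample 2 or 4 (-0.22 for each) or 28 d sample 4 (-0.21), and was called at -0.41 with median-ratio scaling and -0.28 with the total without mitochondrial genes. With a fold of at least 1.5 in FPKM + 1, 2 members were called in that fit (18.8% of genes), and 0 in the late against early comparison (4.38%). At an adjusted p under 0.01, 3 members were called at 21 d (32.8% of all genes), 2 late against early (30.7%), and 9 of the other pathway genes described next at 7 d (37.9%). Bak1, at 0.20 (adjusted p = 0.064), passed without 14 d sample 1 or 28 d sample 3 (0.22 for each), with TPM (0.39) and with a filter of at least 1 FPKM (adjusted p = 0.048), and was -0.09 with median-ratio scaling. Bcl2l11 was called in that fit with TPM (0.30), and Casp9 was not called with quantile normalization (0.15).

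Of 25 other genes of the pathway, 24 passed the filter on low values, and Bcl2a1b, a survival gene of blood cells, did not. From 1 d to 28 d, 4, 9, 8, 11, 10, 10 and 11 of the 24 were called higher, where 20.4%, 29%, 36.1%, 37.1%, 38%, 31.7% and 37.8% of all genes were. On the same days 3, 3, 4, 4, 3, 3 and 3 were called lower, where 9.01% to 14.3% of all genes were. Their median difference was 0.03 at 1 d and 0.11 to 0.22 later. With median-ratio scaling 2, 6, 4, 5, 4, 4 and 7 were called higher and 4, 6, 8, 7, 9, 7 and 8 lower. Of all genes 14.3%, 21.8%, 19.1%, 20.3%, 18.9%, 18.5% and 20% were called higher with that scaling, and 17.3%, 22.5%, 20.1%, 20.2%, 19.4%, 19.4% and 19.9% lower.

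Among upstream genes, Bid, whose cleaved product links death receptors to the mitochondrion, had the largest difference, 1.63 ± 0.12 (SE) at 5 d (adjusted p = 2.1e-12). Its mean went from 0.454 ± 0.134 FPKM at 0 d to 3.49 ± 0.428 FPKM at 5 d (SD, n = 4). Bnip3, a mitochondrial BH3-like gene of hypoxia and mitophagy, rose by 1.44 at 3 d (adjusted p = 8.7e-11), and its 3 d samples read 224.9, 145, 121 and 131 FPKM against 50.2 to 60.05 FPKM at 0 d. Birc3, an inhibitor of apoptosis and an NF-kB target, rose by 1.19 at 3 d (adjusted p = 1.7e-10). Bok, a BAX-like gene, was called at 3 d (0.69, adjusted p = 0.029) with samples at 1.49, 6.59, 5.21 and 2.74 FPKM, and that call was lost without 0 d sample 1 or 3 (0.66 and 0.67), without 3 d sample 2 or 3 (0.45 and 0.54) with median-ratio scaling (0.52) and with only the samples of 0 d and 3 d. Bad, a BH3-only gene whose protein is held inactive by survival kinases, was called higher from 7 d on, and its samples read 4.72, 3.35, 3.43 and 3.72 FPKM at 0 d and 7.17, 6.10, 6.81 and 6.15 FPKM at 28 d, with no overlap. Its largest log2 difference was 0.66 ± 0.13 (SE) at 28 d (adjusted p = 8.5e-05) and 0.34 there with median-ratio scaling, still called, while the 7 d difference of 0.41 became 0.10 and was not called. Mcl1, the survival gene with the highest FPKM of the list, was called higher at 1 d (0.32) and 3 d (0.42), and from 5 d on its differences were -0.14 to 0.03 with the deposited scaling and were called lower with median-ratio scaling (-0.52 to -0.35).

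Of the genes called lower, Cycs, which encodes cytochrome c and serves respiration as well as the apoptosome, had means of 185 FPKM at 0 d and 80.9 FPKM at 28 d. Its largest difference was -1.18 ± 0.10 (SE) at 28 d (adjusted p = 3.2e-11). Endog, a mitochondrial nuclease, was lower by -1.03 at 3 d (adjusted p = 2.4e-09). Dffa, which encodes the inhibitor and chaperone of the caspase-activated DNase, reached -1.07 at 3 d (adjusted p = 4.4e-14). These 3 genes were called lower on all 7 days under both scalings. Bcl2l2, another survival gene, was called lower at 7 d (-0.18, adjusted p = 0.01), and with TPM the difference was -0.01 and was not called. With median-ratio scaling Bcl2l2 was called lower on every day but 3 d (-0.53 to -0.26).

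**Figure D5:**
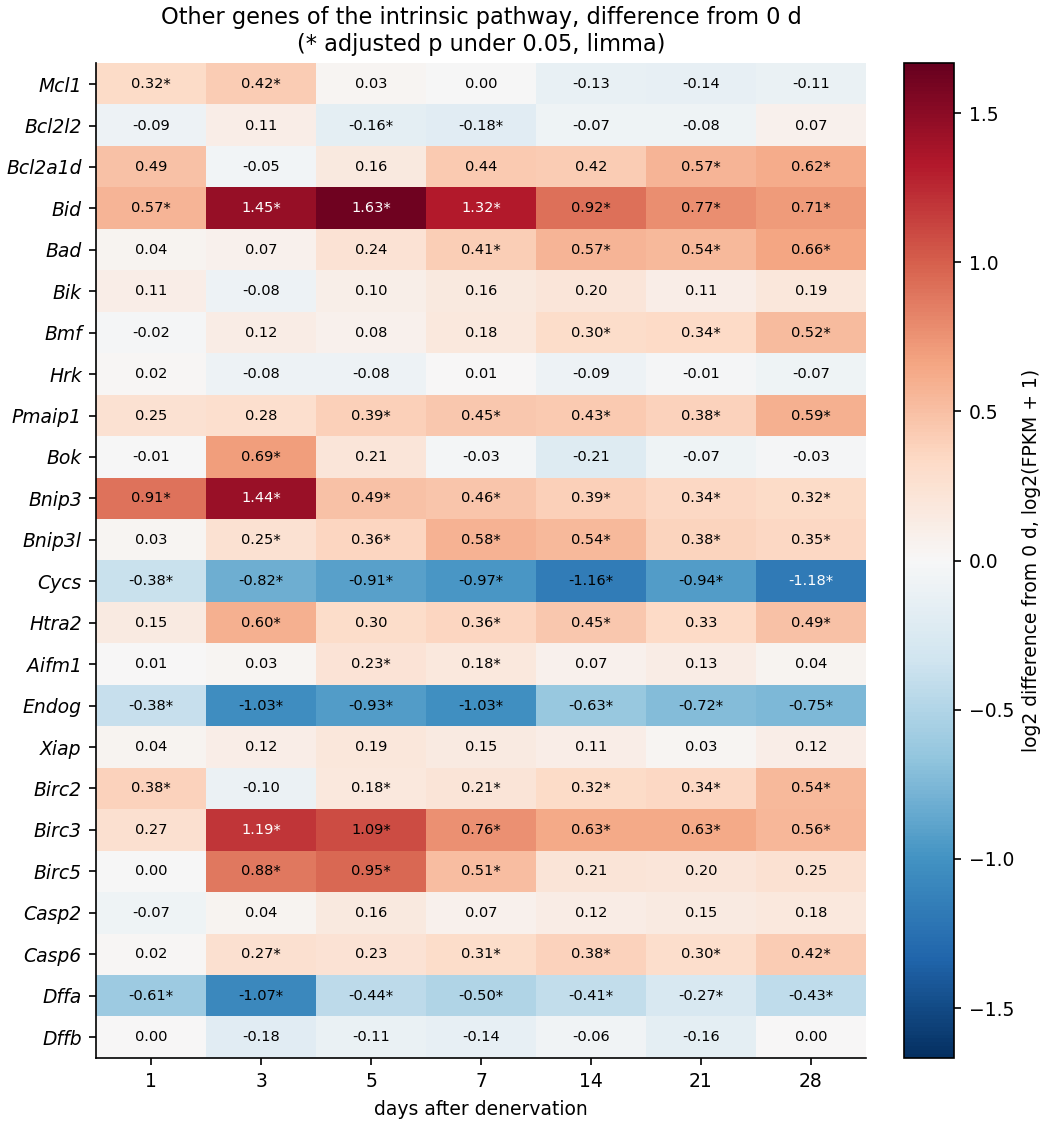
Log2 difference from 0 d by day after denervation of the 24 other pathway genes that passed the filter, on the log2(FPKM + 1) scale with the deposited scaling, with asterisks for an adjusted p under 0.05 in limma. Bid is reddest at 5 d, Bnip3 at 3 d, and Cycs, Endog and Dffa are blue on every day.

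The genes most like each member over the 32 samples, by Pearson's r of log2(FPKM + 1) among 11943 genes with a mean of at least 1 FPKM, differed from member to member. For Bax they were Wdr46 (r = 0.930) and Tbl2 (0.928), and for Bbc3 Mid1 (0.912) and Ttc13 (0.912). For Bak1 they were Psma6, a proteasome core subunit (0.949), and Gm13889 (0.940), and for Bcl2l1 Chmp4b (0.903) and Rasa3 (0.896). Bcl2l11 was most like Jmy (0.894) and Fance (0.885), Casp9 like Pcdhgc3 (0.884) and Acp2 (0.863), and Bcl2 like Sptbn1 (0.838) and Gdpd5 (0.767). Apaf1 was most like Nfam1 (0.949) and Pirb (0.944), receptors known from immune cells. Diablo had the weakest neighbours, Fnbp4 (0.770) and Ep300 (0.753). Among the 36 pairs of members r ranged from -0.178 to 0.793, with a median of 0.263, and the highest was that of Bax and Bbc3. These values describe samples that share libraries and a time course.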

How the data were processed

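Members, gene lists and tests were chosen with earlier results of these data known. The deposited table held FPKM values, which the authors had scaled by exon length and library total. The submitters' notes name CASAVA, HISAT2 2.1.0, DESeq2 and GRCm38 with no role, and the counter and annotation were not given in the sources used here. Table columns named the day but not the labelled sample, so letters within a day paired nothing. Of 33397 genes, 33356 matched GENCODE M21, whose merged exon lengths turned 99.3% to 99.4% of values under 200 fragments into whole fragments within 0.05. All 32 samples entered limma 3.58.1 (R 4.3.3) with 1 mean per day and a variance trend, on log2(FPKM + 1), for genes of at least 0.1 FPKM in 4 samples. Named were all members, up to 5 pathway genes in each direction with the largest called difference and mean FPKM of at least 1, and the 2 genes most like each member. Mcl1 and Bcl2a1b were named after their values were seen, and some genes of the pathway are not reported here. No pair of replicates was a duplicate, since counts differed by 3.76 to 60.4 times counting noise. The code was tested on simulated data. Alternatives were other pseudocounts, filters, thresholds and scalings (median-ratio, quantile, TPM), limma-voom on recovered fragments, and fits without each sample.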

Additional observations from a re-analysis of the deposited data

Results flagged for a closer look

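Of 72 sets of 4 samples (9 genes on 8 days), 3 held a sample far from the other 3 by Dixon's test, where chance at 1 in 20 gives 3.6. Sample 1 of 3 d read 10.5 FPKM for Bak1 against 8.54 to 8.67 FPKM in the others. Sample 3 of 7 d read 3.99 FPKM for Bcl2l1 against 5.17 to 5.29 FPKM. Sample 4 of 14 d read 2.39 FPKM for Casp9 against 2.00 to 2.03 FPKM.

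Of 63 differences between denervated days that were tested, 13 were called in limma (adjusted p under 0.05, log2 scale). From 1 d to 3 d these were Bax (0.38), Bak1 (0.92), Bcl2l1 (0.69) and Bcl2l11 (-0.62). From 3 d to 5 d they were Bak1 (-0.34), Bcl2l1 (-0.60) and Bbc3 (0.66). From 7 d to 14 d Bak1 was called (-0.42) and from 14 d to 21 d Bbc3 (-0.60). Between the mean of 14, 21 and 28 d and that of 1, 3, 5 and 7 d, Bak1 (-0.54), Bcl2 (-0.16), Bcl2l1 (-0.19) and Casp9 (0.18) were called.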

How the results depend on the processing

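Over alternatives other than leaving out a sample, 1098 values of single genes kept their direction and call, 99 lost the call, 24 gained it and 48 changed direction. With a sample left out the counts were 3077, 66, 12 and 13. The cause was not tested. Recovered fragments per sample were 20 to 60 for Diablo, 22 to 203 for Bbc3 and 39 to 187 for Bax.

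Differences from 0 d that changed direction with median-ratio scaling were Bcl2 at 3 d and 5 d (-0.13 each), Bcl2l11 at 3, 5, 7, 14, 21 and 28 d (-0.093, -0.10, -0.15, -0.16, -0.12 and -0.024), Casp9 at 3 d (-0.10), Diablo at 5, 7, 21 and 28 d (-0.0075, -0.057, -0.064 and -0.00077), Bak1 at 14, 21 and 28 d (-0.042, -0.10 and -0.12), and in the pooled late fit Bak1 (-0.089), Bcl2l11 (-0.099) and Diablo (-0.0043). Bax in the late against early comparison became -0.035. With quantile normalization the same differences became -0.073 and -0.12 for Bcl2, -0.034, -0.090, -0.15, -0.18, -0.13 and -0.052 for Bcl2l11, -0.043 for Casp9, -0.023, -0.082, -0.092 and -0.048 for Diablo, -0.044, -0.098 and -0.13 for Bak1, -0.091, -0.12 and -0.044 in the pooled late fit, and -0.016 for Bax, and late against early Bbc3 became -0.019. With TPM Bcl2 became 0.0013 at 7 d and 0.076 at 14 d. With the total taken without mitochondrial genes, 3 d values became -0.053 for Bcl2, -0.0095 for Bcl2l11 and -0.016 for Casp9, Bcl2l11 became -0.0044 at 14 d and Diablo -0.014 at 21 d. None of these values but that of Bak1 at 14 d was called with the settings of the report.

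The member count at 21 d against 0 d, 6 with the settings of the report, was 3 with median-ratio scaling, with quantile normalization and at an adjusted p under 0.01. The single call from 14 d to 21 d became 0 with a pseudocount of 0.1, median-ratio scaling, quantile normalization, the total without mitochondrial genes and an adjusted p under 0.01. The single call from 7 d to 14 d became 0 with TPM, with only the samples of those days, at 1.5-fold or more in FPKM + 1, and at an adjusted p under 0.01. A fold of at least 1.5 in FPKM + 1 left 2, 3, 3, 2 and 2 members at 1, 5, 14, 21 and 28 d, 2 in the pooled late fit and 0 late against early. It left 2, 5, 4, 4, 4 and 6 of the 24 other pathway genes at 1, 5, 7, 14, 21 and 28 d. Of all genes 8.84%, 18.8%, 19.5%, 18.5%, 15.7% and 18.3% passed at 1, 5, 7, 14, 21 and 28 d. The share was 18.8% in the pooled late fit and 4.38% late against early. An adjusted p under 0.01 left 9 other pathway genes at 7 d and 2 members late against early.

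Leaving out single samples, the member count at 1 d ranged from 3 (without 1 d sample 4) to 7, and the counts from 7 d to 14 d and from 14 d to 21 d ranged from 0 to 1. Ranges that crossed 0 were -0.046 to 0.057 for Bcl2 at 3 d, -0.20 to 0.016 at 7 d and -0.11 to 0.0034 at 14 d, -0.021 to 0.11 for Bcl2l11 at 3 d, -0.023 to 0.040 for Diablo at 21 d, -0.047 to 0.16 for Casp9 at 3 d, and -0.0058 to 0.038 for Bax late against early.

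No paired analysis was possible because the columns of the table carry letters within a day and not the replicate numbers of the labels, so the replicate block was not run.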
